A study of Mus musculus with 7 samples.

Results

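The interleukin and tumour necrosis factor (TNF) family cytokines and receptors are the 116 genes whose name on the array starts with Il and a number, Tnfsf and a number or Tnfrsf and a number, or is Tnf, Lta or Ltb. They were taken from the probes that are not controls and account for 143 of 55681 probes and 116 of 35715 gene names. By role they comprise 40 interleukin ligands and antagonists, 40 interleukin receptor chains, 13 TNF ligands and 20 TNF receptors. The remaining 3 names fit the rule but are neither cytokine nor receptor, namely Il4i1, an amino acid oxidase, and the opposite-strand transcripts Il1bos and Tnfsf13os. RNA from whole liver of 4-week-old C57BL/6J mice was measured, with 1 array and 1 dye per animal. The 3 Rbpj-/- animals were AlfpCre+ with floxed Rbpj alleles and the 4 Rbpj+/+ animals were AlfpCre- with the same floxed alleles. Cre was under the control of the Alfp promoter, which is active in the hepatic epithelial lineage, so that liver cells outside it keep the allele. All mice were untreated and kept pathogen-free, and the Rbpj-/- livers were cholestatic per the labels, so genotype and cholestasis cannot be told apart. With 7 arrays, small differences cannot be measured precisely.

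Interleukins signal through receptors built of several chains, and the chain shared by several cytokines often carries the signal into the cell. Members of the IL-1 family bind a specific receptor and then the accessory protein IL1RAP. The family is held back by soluble antagonists and by decoy receptors that bind a ligand without signalling. TNF ligands are membrane-bound or shed trimers whose receptors recruit adaptor proteins leading to NF-kappaB activation or cell death. In the liver, Kupffer cells and recruited monocytes are known sources of IL-1, IL-6 and TNF, whereas hepatocytes respond to IL-6 through IL6RA and gp130 with acute phase proteins.

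All 7 arrays were on 1 slide, the Rbpj+/+ arrays in one row and the Rbpj-/- arrays in the other, so row and genotype cannot be told apart. Between 41.1% and 64.9% of probes were well above background per array. Rbpj+/+ 2 and Rbpj-/- 1 stood apart, as their median intensity was 18.7 and 29.6 and that of the other 5 arrays lay between 4.99 and 7.75. The Rbpj probe on chromosome 5 was lower in Rbpj-/- liver in every animal, with a log2 fold change of -1.13 ± 0.24 (SE) and an adjusted p of 0.0115 by limma. The second probe named Rbpj maps to chromosome 6. It was also called lower, with overlap between the groups (log2 fold change -1.63, adjusted p = 0.0723). Whether either probe lies in the floxed part is not given in the sources used here.

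Levels are given as normalized log2 intensities, which are the log2 of the background-subtracted intensity minus the 75th percentile of the array, so that 0 stands for that percentile. They compare animals for the same probe and not different probes. A probe counts as detected if its signal is positive, significant and well above the local background.

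The sequences of 4 probes are shown because the value of their gene depends on which sequence was measured. The brightest probes of Il15ra, the receptor chain that presents IL-15, and of Tnfrsf9, the costimulatory receptor 4-1BB, contain a TG repeat. In the following 30 bases of each probe, 5′ to 3′ on the plus strand, capitals mark the repeat.
Il15ra, probe at chr2:11655416-11655475 (mm9): tatatgtaTGTGTGTGTGTGTGTGTatgta
Tnfrsf9, probe at chr4:150319582-150319641 (mm9): taaaatcagTGTGTGTGTGTGTGTGTGTGT
Of the 110 probes on the array with 8 or more TG or CA units in a row, 109 were detected on all 7 arrays, compared with 21143 of the 55571 other probes. The second Tnfrsf9 probe was detected on 1 of 4 Rbpj+/+ arrays and on none of 3 Rbpj-/- arrays. The second Il15ra probe was detected on all arrays and had a log2 fold change of -0.65, whereas that of the repeat probe was 0.65 (adjusted p = 0.156 and 0.132). No direction is given for either gene, and neither was called.

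The other pair belongs to Tnfsf12, which encodes TWEAK, the ligand of the receptor Tnfrsf12a. Both probes are 60 bases long, lie on the minus strand of chromosome 11 and have 1 reading frame without an internal stop. Capitals mark the stop codon at the end of the downstream probe.
Tnfsf12 upstream probe at chr11:69500528-69500587 (mm9): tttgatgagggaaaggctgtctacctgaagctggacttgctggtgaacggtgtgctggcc
Tnfsf12 stop-codon probe at chr11:69500342-69500401 (mm9): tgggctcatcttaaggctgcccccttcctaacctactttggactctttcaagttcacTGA

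The comparison of Rbpj-/- with Rbpj+/+ liver asked which cytokine and receptor genes differ in the cholestatic liver. Of the 116 genes, 60 had a probe detected on all arrays of at least 1 genotype and were tested. At an adjusted p of 0.1, 32 of the 60 were called by limma, 25 higher and 7 lower in Rbpj-/- liver. Over all 18771 genes tested, 34.2% were called, 14.6% as higher and 19.6% as lower, and at the level of probes 33.6% of 24548 were called. The groups did not overlap for 32 of the 60 members, compared with 36.5% of all genes. Members that passed the filter through one genotype only favour a difference in that direction, so the 43 members detected on all 7 arrays are given separately. Of these, 16 were higher, 5 were lower and 22 were not called, with a median log2 fold change of 0.54, compared with -0.13 over all genes tested. With only probes detected on all 7 arrays tested, 19 of the 43 were higher and 5 lower. Of the 16556 genes in that test, 36.6% were called, 13.8% as higher, with a median of -0.16. By role, 6 interleukin ligands, 11 interleukin receptors, 2 TNF ligands and 6 TNF receptors were higher. The 7 lower genes were 1 interleukin ligand, 4 interleukin receptors, 1 TNF ligand and 1 TNF receptor. As fewer cells of a type and less RNA per cell cannot be told apart in whole liver, no level is a level per cell.

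**Figure D1:**
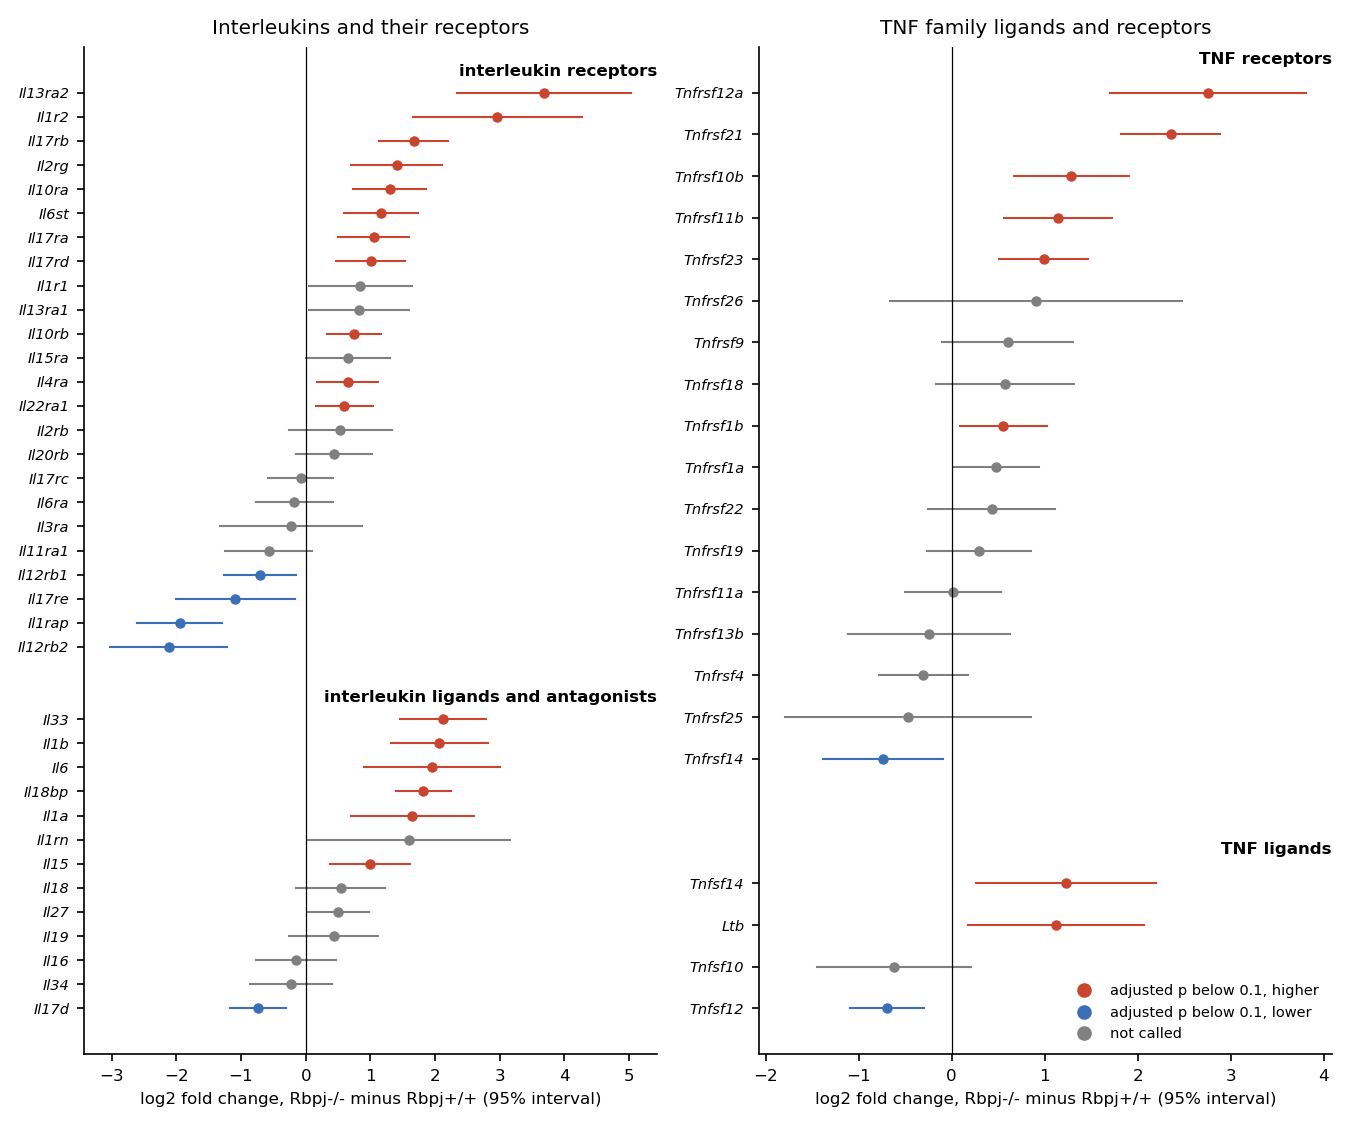
Log2 fold change of every tested interleukin, TNF ligand and receptor gene (x axis, Rbpj-/- minus Rbpj+/+, point) with its 95% interval from limma (line), grouped by role. Red points passed an adjusted p of 0.1 as higher and blue points as lower. Among the genes detected on all 7 arrays, Tnfrsf12a at 2.76 lies farthest to the right and Il1rap at -1.95 farthest to the left. The points of Il13ra2, Il1r2, Il1a, Il15, Tnfrsf18 and Il12rb2 rest on signals not well above background in one genotype, so their positions are not exact. The same holds in part for members detected on only some arrays of a genotype, such as Il6, Il1rn, Tnfrsf21, Tnfrsf26, Tnfsf14, Il17rd and Il17re.

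Among the interleukin ligands, 13 of 40 were tested, of which 6 rose and 1 fell. Il33 encodes a nuclear alarmin of the IL-1 family. Its level was -1.07, -1.87, -1.25 and -1.60 in the Rbpj+/+ animals and 1.25, 0.54 and 0.25 in the Rbpj-/- animals (probe at chr19:30035101-30035160). All Rbpj-/- animals were above all Rbpj+/+ animals, and the means of -1.45 ± 0.36 (SD, n = 4) and 0.68 ± 0.51 (SD, n = 3) differed by 2.12 ± 0.29 (SE), a 4.36-fold rise (adjusted p = 0.00238). Il1b, the secreted fever cytokine that caspase-1 activates, measured -2.43, -1.52, -2.53 and -1.84 in Rbpj+/+ and 0.13, 0.43 and -0.61 in Rbpj-/- liver. It rose 4.18-fold without overlap (log2 fold change 2.06 ± 0.33, adjusted p = 0.00424). Il1a, which is released from damaged cells, was detected in none of 4 Rbpj+/+ and all of 3 Rbpj-/- animals. Its level lay between -5.26 and -3.62 in Rbpj+/+ and was -2.14, -2.63 and -3.49 in Rbpj-/- liver (called higher, adjusted p = 0.0244). The rise was at least 1.54-fold after background subtraction, but the log2 fold change was -0.17 with the normexp background correction.

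Il18bp encodes the soluble protein that binds and blocks IL-18. It measured 1.55, 1.35, 1.03 and 1.28 in Rbpj+/+ and 3.07, 3.13 and 3.16 in Rbpj-/- liver. The Rbpj-/- animals had an SD of 0.05 (n = 3) and the rise was 3.53-fold (log2 fold change 1.82 ± 0.19, adjusted p = 0.00082). Il18 itself was not called, at 2.83 ± 0.57 and 3.37 ± 0.16 (SD, n = 4 and 3), with a 95% interval of the log2 difference from -0.15 to 1.23. It passed as higher under normexp, another background correction (0.68, adjusted p = 0.0414), and with the percentile taken over probes detected on all arrays (0.62, adjusted p = 0.0995). The IL-1 receptor antagonist Il1rn ranged from -4.53 to -2.27 in Rbpj+/+ and measured -0.57, -3.40 and -2.15 in Rbpj-/- liver. The groups overlapped and it was not called (1.60 ± 0.69, adjusted p = 0.122). It passed without Rbpj+/+ 2 (2.06, adjusted p = 0.055), without Rbpj-/- 2 (2.28, adjusted p = 0.0659) and under 4 other settings, including quantile normalization (1.97, adjusted p = 0.0444).

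Il6, the main inducer of the acute phase response, was detected in 1 of 4 Rbpj+/+ and all of 3 Rbpj-/- animals. It measured -3.52, -5.20, -3.98 and -4.96 in Rbpj+/+ and -1.79, -2.45 and -3.15 in Rbpj-/- liver, without overlap. It was called higher (adjusted p = 0.0187, exact permutation p = 0.0571), but the size of the difference is not exact, as 3 of 4 Rbpj+/+ values were not well above background. Il15, which sustains natural killer cells, was detected in none of 4 and all of 3 animals and was called higher in Rbpj-/- liver (adjusted p = 0.0309). The rise was at least 1.45-fold after background subtraction, but the log2 fold change was -0.19 with normexp. Without Rbpj-/- 3 the adjusted p was 0.103 at a log2 fold change of 0.83. Il17d was the only interleukin ligand called lower. It measured -0.61, -1.09, -0.66 and -0.66 in Rbpj+/+ and -1.45, -1.45 and -1.58 in Rbpj-/- liver, a 1.67-fold fall (log2 fold change -0.74 ± 0.19, adjusted p = 0.0264), while its second probe was not called (log2 fold change -0.33, adjusted p = 0.372). Il34, a ligand of the CSF1 receptor, was not called, with a 95% interval of the difference from -0.86 to 0.41.

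**Figure D2:**
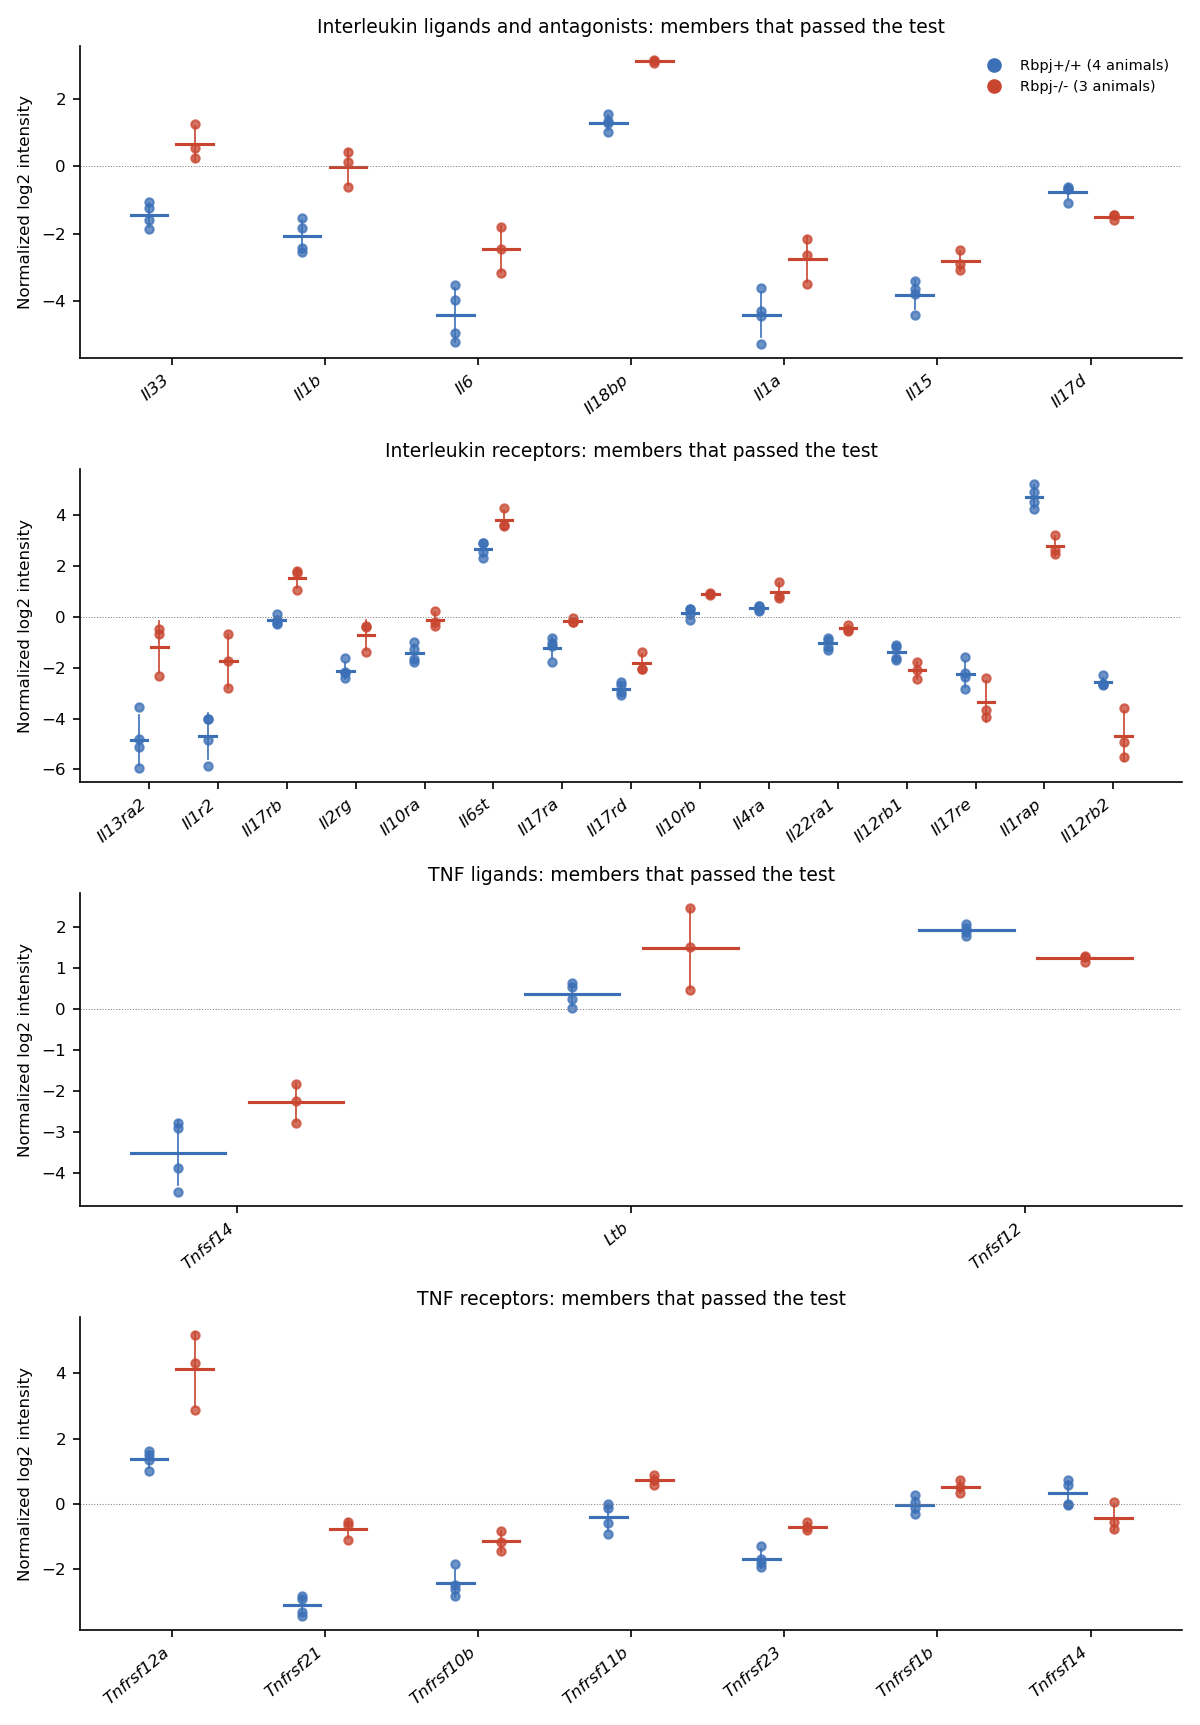
Normalized log2 intensity (y axis) of the 32 genes that passed the test, with 1 point per animal, the mean as a horizontal bar and 1 SD as a vertical line, in Rbpj+/+ (blue, n = 4) and Rbpj-/- liver (red, n = 3). The Rbpj-/- points of Il18bp lie close together at 3.07 to 3.16, whereas those of Tnfrsf12a spread from 2.88 to 5.17.

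Among the interleukin receptors, the 2 that were detected on all Rbpj-/- and no Rbpj+/+ arrays were decoy receptors. Il13ra2 binds IL-13 without signalling through STAT6. It measured -5.93, -3.55, -4.79 and -5.11 in Rbpj+/+ and -0.49, -2.33 and -0.68 in Rbpj-/- liver (probe at chrX:143818095-143818154). It was detected in none of 4 and all of 3 animals and was called higher in Rbpj-/- liver (adjusted p = 0.00432). The rise was at least 4.64-fold after background subtraction, but the log2 fold change was 0.55 with normexp. Il1r2, the decoy for IL-1, measured -5.88, -4.01, -4.86 and -4.01 in Rbpj+/+ and -0.66, -1.73 and -2.80 in Rbpj-/- liver (called higher, adjusted p = 0.00905). The rise was at least 3.14-fold after background subtraction, but with normexp the log2 fold change was 0.27 and not called. The groups of both genes did not overlap. The signalling receptor Il1r1 measured 2.40 ± 0.57 and 3.24 ± 0.50 (SD, n = 4 and 3) and was not called (log2 fold change 0.85, adjusted p = 0.11). It passed without Rbpj+/+ 3 (1.11, adjusted p = 0.052), without Rbpj-/- 3 (1.13, adjusted p = 0.0735) and under 4 other settings, including normexp (1.06, adjusted p = 0.0183).

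The accessory chain Il1rap fell. It measured 4.54, 4.24, 5.25 and 4.93 in Rbpj+/+ and 2.65, 2.49 and 3.23 in Rbpj-/- liver (probe at chr16:26701498-26701557). Every Rbpj-/- animal was below every Rbpj+/+ animal and the fall was 3.86-fold (log2 fold change -1.95 ± 0.29, adjusted p = 0.0032). This probe is annotated to a different transcript from the second Il1rap probe, which was detected on 1 of 4 Rbpj+/+ arrays and no Rbpj-/- array, so the isoforms were not compared. The ST2 receptor Il1rl1, through which IL-33 signals, was not tested, as its 3 probes were detected on Rbpj+/+ 2 only or on no array.

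Of the receptor chains for IL-6, Il6ra was not called and Il6st rose. Il6ra measured 4.74, 4.89, 5.48 and 5.26 in Rbpj+/+ and 4.47, 5.07 and 5.20 in Rbpj-/- liver, with a 95% interval of the difference from -0.77 to 0.42. Il6st, which encodes the shared signalling chain gp130, measured 2.90, 2.31, 2.55 and 2.90 in Rbpj+/+ and 4.28, 3.59 and 3.62 in Rbpj-/- liver, a 2.24-fold rise without overlap (log2 fold change 1.17 ± 0.25, adjusted p = 0.0131). Both chains for IL-10 rose, the specific Il10ra 2.45-fold (log2 fold change 1.30 ± 0.25, adjusted p = 0.00892) and the shared Il10rb 1.68-fold (0.75 ± 0.19, adjusted p = 0.0217). Il10 itself was detected on no array.

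Of the IL-17 receptors, Il17rb, which takes part in IL-25 signalling, measured 0.12, -0.10, -0.25 and -0.29 in Rbpj+/+ and 1.81, 1.07 and 1.73 in Rbpj-/- liver. It rose 3.18-fold (log2 fold change 1.67 ± 0.23, adjusted p = 0.00251), and its second probe was called in the same direction (1.38, adjusted p = 0.0592). The shared chain Il17ra rose 2.07-fold (1.05 ± 0.24, adjusted p = 0.0173). Il17rd, an inhibitor of fibroblast growth factor signalling that also binds IL-17RA, was 2-fold higher (adjusted p = 0.0191). This size is not exact, as Il17rd was detected in 2 of 4 Rbpj+/+ and all of 3 Rbpj-/- animals. Il17re, the chain for IL-17C, was lower and overlapped between the groups (log2 fold change -1.09 ± 0.40, adjusted p = 0.0824). Il17re was detected in all of 4 Rbpj+/+ and 1 of 3 Rbpj-/- animals. Its adjusted p exceeded 0.1 without Rbpj+/+ 2, 3 or 4 and without Rbpj-/- 2 or 3, where the log2 fold change lay between -1.13 and -0.79.

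The common gamma chain Il2rg, shared by the receptors for IL-2, IL-4, IL-7, IL-15 and others, measured -2.42, -2.22, -2.18 and -1.62 in Rbpj+/+ and -0.35, -1.39 and -0.38 in Rbpj-/- liver. It rose 2.65-fold without overlap (log2 fold change 1.40 ± 0.31, adjusted p = 0.0141). Il4ra, the chain for IL-4 and IL-13, was higher by 0.65 ± 0.21 (adjusted p = 0.0522), and without Rbpj+/+ 1, Rbpj+/+ 3 or Rbpj-/- 1 its log2 fold change was 0.62, 0.62 or 0.46 and not called. The second Il4ra probe was not called (0.76, adjusted p = 0.235). Il22ra1 was higher by 0.59 (adjusted p = 0.0561) and lost the call without any animal other than Rbpj+/+ 2 or Rbpj+/+ 4, at 0.52 to 0.64. Both IL-12 receptor chains were called lower by their brightest tested probe. Il12rb2 measured -2.62, -2.63, -2.31 and -2.68 in Rbpj+/+ and -5.53, -4.92 and -3.59 in Rbpj-/- liver by the tested probe. This probe was detected in all of 4 and none of 3 animals and was called lower (adjusted p = 0.00809). The fall was at least 2.06-fold after background subtraction, but the log2 fold change was -0.61 with normexp. The second Il12rb2 probe was detected on Rbpj+/+ 2 and Rbpj-/- 1 only. Il12rb1 was lower by -0.71 ± 0.24 (adjusted p = 0.0653), which was not called without Rbpj+/+ 3 or 4 or Rbpj-/- 1 or 2 (-0.72 to -0.53). The second Il12rb1 probe overlapped between the groups and was not called (log2 fold change -0.72, adjusted p = 0.149).

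Among the TNF ligands, 4 of 13 were tested. Tnf itself was detected in none of 4 Rbpj+/+ and 2 of 3 Rbpj-/- animals and was not tested. Its level was -5.70, -4.91, -4.92 and -5.04 in Rbpj+/+ and -3.13, -2.08 and -5.01 in Rbpj-/- liver, so that 2 Rbpj-/- animals were above and 1 within the range of Rbpj+/+ liver. Lta and Tnfsf13b, which encodes the B cell survival factor BAFF, were detected on Rbpj+/+ 2 and Rbpj-/- 1 only. Ltb, which encodes the membrane subunit of lymphotoxin, measured 0.02, 0.24, 0.64 and 0.53 in Rbpj+/+ and 2.46, 1.51 and 0.46 in Rbpj-/- liver, with overlap (log2 fold change 1.12 ± 0.42, adjusted p = 0.082). This call was lost without any animal other than Rbpj-/- 3, and the log2 fold change fell to 0.63 without Rbpj-/- 1. Tnfsf14, which encodes LIGHT, was higher by 1.22 ± 0.43 (adjusted p = 0.0686) and was not called without Rbpj+/+ 1 or 3 or Rbpj-/- 1 or 2 (0.91 to 1.20). It was detected in 2 of 4 Rbpj+/+ and all of 3 Rbpj-/- animals, so the size is not exact. The death ligand Tnfsf10, known as TRAIL, measured -0.66, -0.52, -0.71 and -0.39 in Rbpj+/+ and -1.45, -1.92 and -0.20 in Rbpj-/- liver. It was not called (-0.62, adjusted p = 0.248), but passed without Rbpj-/- 3 (-1.11, adjusted p = 0.0206).

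The 2 Tnfsf12 probes shown above moved in opposite directions. The stop-codon probe measured 1.88, 1.78, 2.07 and 1.99 in Rbpj+/+ and 1.15, 1.30 and 1.26 in Rbpj-/- liver, a 1.62-fold fall (log2 fold change -0.69 ± 0.17, adjusted p = 0.0232). The upstream probe measured -1.18, -1.48, -1.68 and -1.32 in Rbpj+/+ and -0.38, -0.49 and -0.89 in Rbpj-/- liver, a rise of 0.83 on the log2 scale (adjusted p = 0.0244). Neither probe overlapped between the groups. Farther downstream lie 2 probes named Tnfsfm13, after the read-through transcript that joins Tnfsf12 and Tnfsf13. Whether these probes also measure Tnfsf13 itself was not tested. The first, at chr11:69496733-69496792, rose from 0.26 ± 0.14 to 1.36 ± 0.02 (SD, n = 4 and 3, adjusted p = 0.004), and the second was not called (0.32, adjusted p = 0.642). Tnfsf12 is counted as lower by its brighter probe, the stop-codon probe, and the mean of both probes was 0.07 higher and not called.

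**Figure D3:**
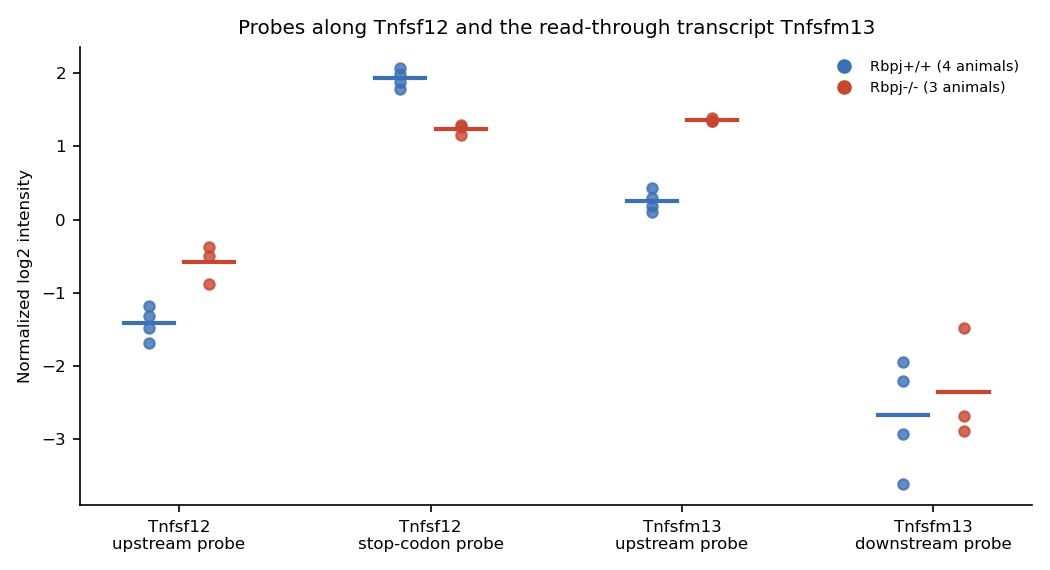
Normalized log2 intensity (y axis) of the 2 Tnfsf12 probes and the 2 Tnfsfm13 probes, ordered along the direction of transcription, with 1 point per animal and the mean as a bar (blue Rbpj+/+, n = 4; red Rbpj-/-, n = 3). The stop-codon probe is lower in Rbpj-/- liver, whereas the probes on either side of it are higher.

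Among the TNF receptors, Tnfrsf12a had the largest rise. It encodes Fn14, the TWEAK receptor, and measured 1.62, 1.02, 1.49 and 1.35 in Rbpj+/+ and 4.31, 5.17 and 2.88 in Rbpj-/- liver (probe at chr17:23812746-23812805). The means of 1.37 ± 0.26 (SD, n = 4) and 4.12 ± 1.16 (SD, n = 3) differed by 2.76 ± 0.46 (SE), a 6.75-fold rise without overlap (adjusted p = 0.00515). Tnfrsf21, which encodes death receptor 6, measured -2.92, -3.42, -3.31 and -2.81 in Rbpj+/+ and -0.55, -1.10 and -0.64 in Rbpj-/- liver. It rose without overlap (adjusted p = 0.000649), by a size that is not exact because it was detected in 1 of 4 Rbpj+/+ and all of 3 Rbpj-/- animals. The TRAIL receptor Tnfrsf10b measured -1.85, -2.61, -2.82 and -2.47 in Rbpj+/+ and -1.17, -0.83 and -1.46 in Rbpj-/- liver, a 2.44-fold rise without overlap (1.29 ± 0.27, adjusted p = 0.0122). This size is not exact, as Tnfrsf10b was detected in 3 of 4 Rbpj+/+ and all of 3 Rbpj-/- animals. Tnfrsf11b, which encodes the soluble decoy osteoprotegerin, measured -0.60, -0.93, -0.02 and -0.12 in Rbpj+/+ and 0.73, 0.88 and 0.57 in Rbpj-/- liver, a 2.21-fold rise (1.15 ± 0.26, adjusted p = 0.0149).

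Both receptors for TNF were detected in all animals. Tnfrsf1a was not called by its brighter probe, at 4.96 ± 0.25 and 5.44 ± 0.11 (SD, n = 4 and 3; log2 fold change 0.48, adjusted p = 0.114), whereas its second probe was higher by 0.89 (adjusted p = 0.0324). The brighter probe passed without Rbpj+/+ 1 (0.57, adjusted p = 0.0912) and, with all animals, under 7 other settings, including quantile normalization (0.65, adjusted p = 0.0421). Tnfrsf1b was higher by 0.55 ± 0.21 (adjusted p = 0.0837), which was not called without any animal other than Rbpj+/+ 2 (0.46 to 0.65). Tnfrsf14, the receptor for LIGHT, was the only TNF receptor called lower. It overlapped between the groups (log2 fold change -0.74 ± 0.28, adjusted p = 0.0898) and lost the call without Rbpj+/+ 2 or 3 or Rbpj-/- 1 or 2 (-0.68 to -0.57). Tnfrsf23, a decoy receptor for TRAIL in the mouse, was higher by 0.99 (adjusted p = 0.0128), and its neighbour Tnfrsf22 was not called (0.43, adjusted p = 0.323). Tnfrsf18, which encodes GITR, was detected in none of 4 and all of 3 animals, but was not called (adjusted p = 0.234), except without Rbpj+/+ 4 (0.81, adjusted p = 0.0873). Its values overlapped, with Rbpj+/+ 4 at -2.77 above the Rbpj-/- animals at -2.86, -3.08 and -2.88, so no bound of the fold is given.

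Antagonists, binding proteins and decoy receptors were counted across the roles, a grouping that was made after the values had been seen. Of the 9, 7 were tested and 5 were higher, namely Il18bp, Il1r2, Il13ra2, Tnfrsf11b and Tnfrsf23, where 14.6% of all genes tested were higher. Il1r2 and Il13ra2 passed the filter through the Rbpj-/- arrays only. Il1rn and Tnfrsf22 were not called.

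Detection of the members differed between arrays of the same genotype. In Rbpj+/+ liver 53, 71, 45 and 54 of the 116 genes were detected, and in Rbpj-/- liver 85, 63 and 60. The highest count of each genotype was on Rbpj+/+ 2 and Rbpj-/- 1, the arrays with brighter dim probes. On all arrays of the genotype, 45 members were detected in Rbpj+/+ and 58 in Rbpj-/- liver. That rule asks for 4 arrays in Rbpj+/+ and 3 in Rbpj-/- liver, so the 2 counts are not alike, and no count over all genes stands beside them. Of the 56 members that were not tested, 26 were detected on no array, and 22 of the 30 others on Rbpj+/+ 2 or Rbpj-/- 1 only. Among those detected on no array were Il2, Il4, Il5, Il10, Il12a, Il12b, Il13, Il17a and Il21, cytokines known from T helper cells and antigen-presenting cells. Other such cytokines were detected. Il22 was detected on 3 of 4 Rbpj+/+ and 2 of 3 Rbpj-/- arrays and was not tested. Il27 was detected on all 7 arrays and was not called (log2 fold change 0.51, adjusted p = 0.11 by limma). Il11 and Il21r were detected in none of 4 Rbpj+/+ and 2 of 3 Rbpj-/- animals. Without both brighter arrays, 31 of 61 tested members were called, 24 higher and 7 lower, compared with 28.7% of all genes, and 27 of the 32 calls were kept. The 5 that were not kept were Ltb, Il4ra, Tnfsf14, Tnfrsf14 and Il22ra1.

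**Figure D4:**
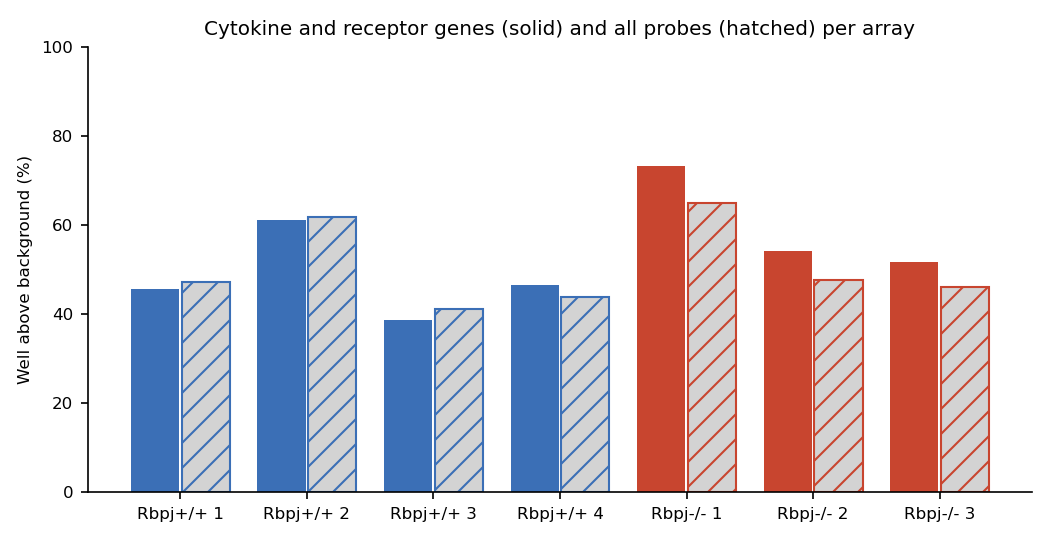
Share of the 116 cytokine and receptor genes (solid bars) and of all 55681 probes (hatched bars) well above background on each array, in percent (y axis). Blue bars are Rbpj+/+ and red bars are Rbpj-/- arrays. Both shares are highest on Rbpj-/- 1 (73.3% and 64.9%) and Rbpj+/+ 2 (61.2% and 61.8%).

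The dim members depended on the background correction. With normexp, a model-based correction with an offset of 50 that compresses dim signals, all 13 called members whose higher group mean was above 0 were called in the same direction. Of the 19 called members below that level, 10 were called and 15 kept their direction. Il6 went to -0.02, Il1a to -0.17, Il15 to -0.19 and Tnfsf14 to -0.07, none of them called. Il1r2, Tnfrsf10b, Tnfrsf23, Il22ra1 and Il17rd kept their direction at 0.03 to 0.27 without a call. Among those still called, the log2 fold change of Il13ra2 was 0.55, of Tnfrsf21 0.54, of Il1b 0.79, of Il33 1.18, of Il10ra 0.60, of Il2rg 0.43, of Il17ra 0.37, of Il10rb 0.43, of Tnfrsf1b 0.35, of Il12rb2 -0.61, of Il17re -0.51, of Il17d -0.46, of Il12rb1 -0.43 and of Tnfsf12 -0.42. The values of Tnfrsf12a, Il18bp, Il6st and Il1rap moved by less than 1.5 times and stayed called.

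**Figure D5:**
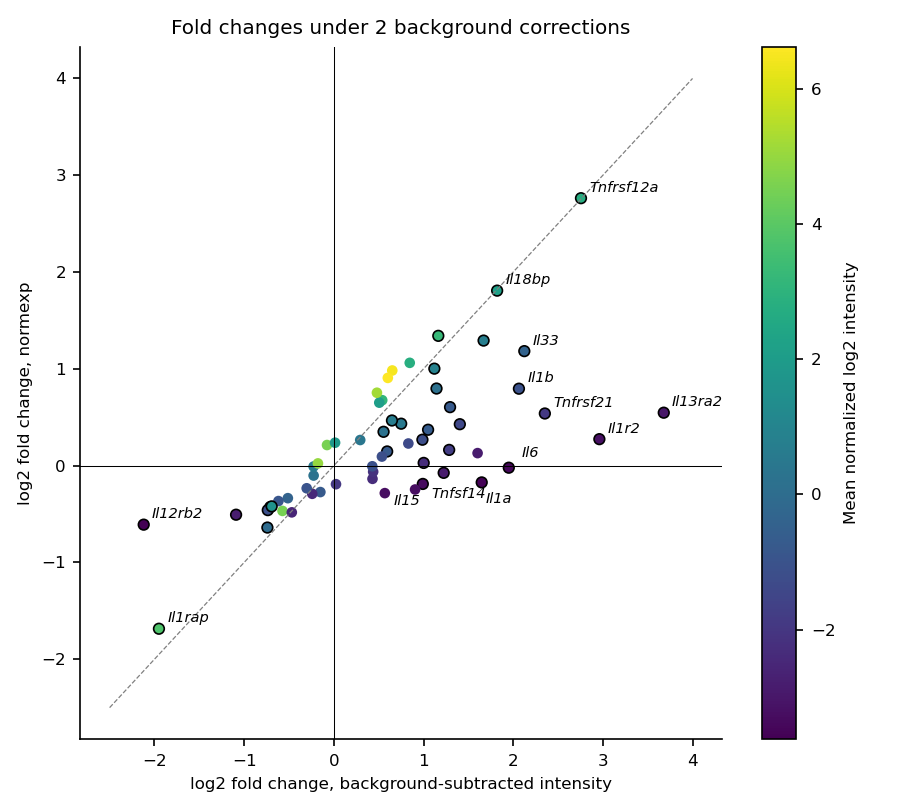
Log2 fold change of the 60 tested members from background-subtracted intensities (x axis) and after normexp (y axis), coloured by the mean normalized log2 intensity, with called members outlined in black. The dashed line marks equal values. Bright members such as Tnfrsf12a, Il18bp and Il1rap lie near it, and dim members such as Il13ra2, Il1r2 and Il6 lie below it, at 0.55, 0.27 and -0.02 on the y axis.

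Markers of other cell types were read as lists. Their counts are to be read beside all genes tested, of which 34.2% were called, 14.6% as higher and 19.6% as lower. Of 12 macrophage markers, 9 were higher, none was lower and 3 were not called, and each was detected on all 7 arrays except Ccr2, which was detected on 3 of 4 Rbpj+/+ arrays. Their summed level, in percent of the 75th percentile of the array, was 12798 to 17763 in Rbpj+/+ and 40960 to 51553 in Rbpj-/- liver. Such a sum adds different probes, so the brightest weigh most, and it is no measure of the number of cells. Of 8 hepatocyte markers, 4 were lower (sum 351538 to 515023 in Rbpj+/+ and 246717 to 310943 in Rbpj-/- liver), with albumin detected on all arrays. Of 6 stellate cell markers, 4 were higher (1284 to 2134 and 2790 to 4967), and of 6 endothelial markers 2 were higher and 1 lower (5220 to 7571 and 8262 to 12895). Of 12 T and NK cell markers, 9 were tested and 1 was higher and 3 were lower (3273 to 4486 and 1435 to 2195), with Klrb1c detected on no array. Of 8 neutrophil markers, 3 were higher and 2 lower (18985 to 27949 and 16327 to 20018). Of 7 cholangiocyte markers, 6 were tested and 2 were higher (395 to 441 and 479 to 1202). Of 6 erythroid markers, 5 were tested and 1 was lower (22935 to 51597 and 10068 to 43051). Of 4 mast cell markers, only 1 was tested, and it was lower (56 to 111 and 28 to 67), with Mcpt4 and Cpa3 detected on no array. The sums of the neutrophil, erythroid and mast cell lists overlapped between the genotypes. The part of these cell types in the differences between the members was not tested.

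Signalling genes that carry other names were read from 7 lists. Of the 99 on the array, 86 were tested, 31 were higher and 9 were lower, with a median log2 fold change of 0.36. Over all genes tested, 34.2% were called, 14.6% as higher and 19.6% as lower, with a median of -0.13. The counts of each list are to be read beside these shares. Of 5 tested genes of IL-1 and IL-18 processing, 4 were higher, namely Casp1 (0.79), Casp4 (1.28), Pycard (1.05) and Nlrc4, which was detected on no Rbpj+/+ and all Rbpj-/- arrays. Of 22 adaptors of TNF and IL-1 receptors, 7 were higher and 1 was lower. The lower one was Cflar (-0.91), by a probe that the array design places on chromosome 3. Whether that probe measures Cflar was not tested. The higher ones included Irak3, an inhibitor of IL-1 receptor signalling, which rose (adjusted p = 0.00404) and was detected on 1 of 4 Rbpj+/+ and all of 3 Rbpj-/- arrays. Of 13 tested NF-kappaB subunits and inhibitors, 5 were higher and 1 was lower. The inhibitor Tnfaip3 rose by 3.67 (adjusted p = 0.00334) and the subunit Relb by 1.61 (adjusted p = 0.00569), whereas Rela was not called (-0.18). Of 14 tested JAK, STAT and SOCS genes, 2 were higher and 2 lower, with Socs3, the feedback inhibitor of gp130, at 2.54 (adjusted p = 0.0173) and Socs2 at -3.11 (adjusted p = 0.0017).

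The other chains that pair with gp130 differed among themselves. The oncostatin M receptor Osmr rose by 2.29 on the log2 scale (adjusted p = 0.00176) and the LIF receptor Lifr was lower by -2.82 (adjusted p = 0.00128), beside the rise of Il6st and the uncalled Il6ra. Of 21 acute phase genes, 9 were higher, 4 lower and 8 not called. Lcn2 (5.28), Orm3 (4.41), Steap4 (2.61) and Saa1 (2.64) were among the higher ones, and Hamp (-1.62), Fgb (-0.69), Fgg (-0.60) and Hp (-0.58) were the lower ones. Of 6 tested TNF superfamily genes under other names, Eda (1.31) and Cd40, detected on 1 of 4 Rbpj+/+ and all of 3 Rbpj-/- arrays, were higher and Fas (-0.15), Ltbr (-0.07), Ngfr and Relt were not called.

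Promoter sequences of 300 bases, from 250 before to 50 after the start, were available from RefSeq (GRCm38.p6) for 91 of the 116 members and were searched on both strands. The core motif of RBPJ, GTGGGAA, was found in 5 of 91 members (5.49%) and in 7.25% of all 27025 genes. By call, 1 of 19 higher, 0 of 5 lower and 2 of 22 uncalled members held it. A kappaB consensus was found in 12 members (13.2%) and in 9.55% of all genes, and it was held by 4 of 19 higher, 1 of 5 lower and 5 of 22 uncalled members. The 30 bases round the match are shown for 3 higher members with the match before the start, 5′ to 3′ on the strand of the gene, with the match in capitals, and both kappaB matches shown were found on the opposite strand. Il6 also held a kappaB match 44 bases before its start.
Tnfrsf23, RBPJ core, chr7:143685978-143686007 (minus): cactgatggtgGTGGGAAggcaagagtggt
Il22ra1, kappaB, chr4:135727993-135728022 (plus): acccaagaaaGGAACCTCCCttggatctcg
Ltb, kappaB, chr17:35194410-35194439 (plus): aagggtgttcGGAAAGTCCCcgggcagggg
These matches are letters in a window and factor binding was not measured.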

How the data were processed

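RNA of 4 Rbpj+/+ and 3 Rbpj-/- livers was hybridised to Agilent 8x60K arrays. The deposited intensity values are background-subtracted spot signals from Agilent Feature Extraction 10.7.3.1, per the labels, not normalized between arrays. The authors also deposited a table of log2 values with column medians between -0.0039 and 0. These correlate at 0.977 to 0.999 with quantile-normalized, probe-centred values and at 0.776 to 0.876 with percentile-shifted ones, whereas the methods state a shift to the 75th percentile and to a median baseline. Which steps made the table was not settled.

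Control probes and spots flagged by the scanner software for non-uniformity or as outliers were removed (146 probe values). No spot was saturated. Repeat spots (432 probes) were averaged, and from every log2 intensity the 75th percentile of its array was subtracted. Probes detected on all arrays of at least 1 genotype were tested with limma 3.58.1 (R 4.3.3). P-values of the 24548 probes were adjusted after Benjamini and Hochberg and the threshold was 0.1. Each gene takes the values of its brightest tested probe. The exact permutation test, two-sided, runs over 35 splits and cannot go below 0.0286. For a called gene detected on no array of a genotype, the fold is a bound, computed against the higher of the lowest detected signal of each array and the signal of the probe itself. It refers to the group means after background subtraction, and normexp gave smaller or reversed differences. Animals are the replicates, and their numbers are names only. Probe positions follow the array design (mm9). RefSeq names matched 115 members by accession and 1 by symbol. Tables and plots were made with Python 3.11.15, pandas 2.3.3 and matplotlib 3.10.9, and the test was tried on simulated data.

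The members and lists were chosen with earlier results of these data known. The text names 42 genes by rule, which are 30 chosen by function, the 4 largest called rises and falls of each role, and genes detected on all arrays of one genotype and none of the other. All others, such as Il17rd, Il22ra1, Tnfrsf23, Il15ra and Tnfrsf9, and the signalling genes given by name, were picked after their values were seen. Alternatives were normexp with an offset of 50, quantile normalization, no filter, the percentile taken from probes measured on every array, only such probes tested, limma-trend, array weights, the mean of a gene's probes, the authors' log2 table, a threshold of 0.05, detection on at least 1 array, and leaving out each animal or both brighter arrays. One of the marker lists is not reported here.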

Additional observations from a re-analysis of the deposited data

Results flagged for a closer look

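Of the 37 named and tested genes, 2 had 1 Rbpj+/+ animal far from the other 3, by Dixon's critical value for 4 samples, which chance alone passes in about 1 of 20 groups. Il17d was -1.09 in Rbpj+/+ 2, below the other 3 animals of that genotype. Il12rb2 was -2.31 in Rbpj+/+ 3, above the other 3, in a group whose SD was 0.17.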

How the results depend on the processing

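Of the 32 called genes, 9 kept their call in every setting in which they were tested, namely Il10ra, Il17rb, Il18bp, Il1b, Il1rap, Il33 and Tnfrsf12a in 18 settings and Il13ra2 and Tnfrsf21 in 17, as they were not tested where detection on all 7 arrays was required. The direction was kept by 27. Without a filter on dim probes 11 members were called, 9 higher and 2 lower, where 4.6% of all genes were called, and 18 instead of 40 signalling genes were called. Fewer than 7 members were lower under quantile normalization (3), in the deposited log2 table (2) and at an adjusted p of 0.05 (4). The same held with the percentile from probes measured on every array (5), only such probes tested (5), limma-trend (6) and the mean of the probes (6). Leaving out each animal gave 4 to 8. Quantile normalization and the deposited log2 table both kept the direction but not the call of Ltb, Il17d, Il12rb2 (-1.46 in both, adjusted p = 0.163 and 0.166), Il17re, Il12rb1, Tnfsf14, Il15 and Il17rd. Without the filter the adjusted p of Il6st was 0.115, of Il2rg 0.118 and of Il17ra 0.137. Counting detection on at least 1 array raised the members detected in Rbpj+/+ liver from 45 to 74. The count in Rbpj-/- liver also rose and stayed above that in Rbpj+/+ liver. The direction reversed under normexp for Il1a (-0.17), Il6 (-0.021), Il15 (-0.19), Tnfsf14 (-0.074), Tnfrsf18 (-0.28) and Il6ra (0.023), and with the mean of the probes for Tnfsf12 (0.068). Il6ra ranged from -0.32 to 0.045 when each animal was left out. The cause of these changes was not tested. Leaving out repeat probes, a setting chosen after seeing the data, gave the same 25 higher and 7 lower genes in number. No paired analysis was possible because the labels give no replicate number shared between the genotypes. Dim signal limits the 56 members that were not tested.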
